A study of Mus musculus with 6 samples.

Results

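Collagens are the main structural proteins of the extracellular matrix. This account follows every collagen gene measured in the colon of young mice with and without targeting of Ihh (Indian hedgehog) in the intestinal epithelium. The members are the 44 genes with a symbol made of Col, a type number, the letter a and a chain number, among 19938 genes that had a single symbol on the array. They were sorted into 11 fibrillar chains, 8 basement membrane chains, 9 FACIT chains, 6 microfibrillar chains and 10 others. All 44 entered the test, since no filter on low values was applied.

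Dissected colon tissue of 3 controls and of 3 VilCre;Ihhflox/flox mice (labelled Ihh mutant) gave total RNA for Affymetrix Mouse Gene 1.0ST arrays, with 1 array for each mouse. In the mutants both Ihh alleles carry loxP sites and Cre recombinase is driven by the promoter of villin, a gene of the intestinal epithelium and not of the stroma below it. The controls are labelled wild type, and whether they carried loxP alleles or Cre was not given in the sources used here. Mutant and control of the same number were littermates, which gives 3 litters. The design text puts the harvest at postnatal day 12, while the growth protocol spans day 9 to day 12. The array values are on the log2 scale, each change is mutant minus control, and a gene rose or fell where the limma fit with the litter as a block gave an adjusted p under 0.05. An error beside a change is the standard error of that fit. The question was which genes differ in the colon when Ihh is targeted in its epithelium.

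A collagen molecule is a triple helix of 3 chains, and the chains of each type come from separate genes. Fibrillar collagens form the tensile fibres of the submucosa and muscle coat, collagen IV forms the meshwork of basement membranes, and FACIT collagens sit on the surface of fibrils. Collagen VI forms beaded microfibrils close to cells. In the gut most collagen is made by fibroblasts, smooth muscle and vessel cells of the wall, and epithelial hedgehog signals act on those stromal cells.

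The targeted pathway was checked first. Ihh itself was lower in the mutant of 3 of 3 litters without passing the test (-0.30 ± 0.09, adjusted p = 0.139), while its target genes Ptch1 (-1.44 ± 0.09) and Gli1 (-0.78 ± 0.08) fell. Which part of Ihh was deleted, and whether the probes lie in it, was not given in the sources used here. All 10 gut epithelium markers lay above the brightness of the median gene, against 0 of 6 squamous epithelium and 0 of 7 cartilage and bone markers. Mutant 1 stood apart for collagens. It was the lowest of the 3 mutants in 33 of 44 collagen genes, while control 1 was the lowest control in 15. The share over all genes was not computed. Smooth muscle markers were also lowest in mutant 1 (mean level 10.73, against 10.91 and 11.17 in mutants 2 and 3). Mesothelium markers were highest in mutant 1 (7.08, against 6.72 and 6.63). The median range among the 3 mutants was 0.24 over collagen genes and 0.20 over all genes, against 0.10 and 0.19 among the 3 controls. Results that rest on litter 1 are therefore given with and without it.

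In the limma fit 8 of 44 collagen genes fell and 0 rose, while 36 did not pass. Over all genes 3.77% passed (2.11% fell and 1.66% rose), and among collagen genes 18.2% fell. At an unadjusted p under 0.05, 14 collagen genes were lower and 0 higher, against 8.03% and 7.05% of all genes. The largest decreases were in Col6a4, Col12a1, Col4a6 and Col15a1. In 17 of 44 genes every mutant lay below every control, against 9.78% of all genes, and in 0 did every mutant lie above every control, against 10.0%. In 23 genes the mutant was lower in 3 of 3 litters, against 17.1% of all genes, and in 1 gene, Col28a1, it was higher in all 3, against 18.8%. The median change was -0.11 over collagen genes and 0.01 over all genes. All 8 genes that fell were among the 32 collagen genes brighter than the median gene. Of all genes above that brightness 3.18% fell.

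**Figure D1:**
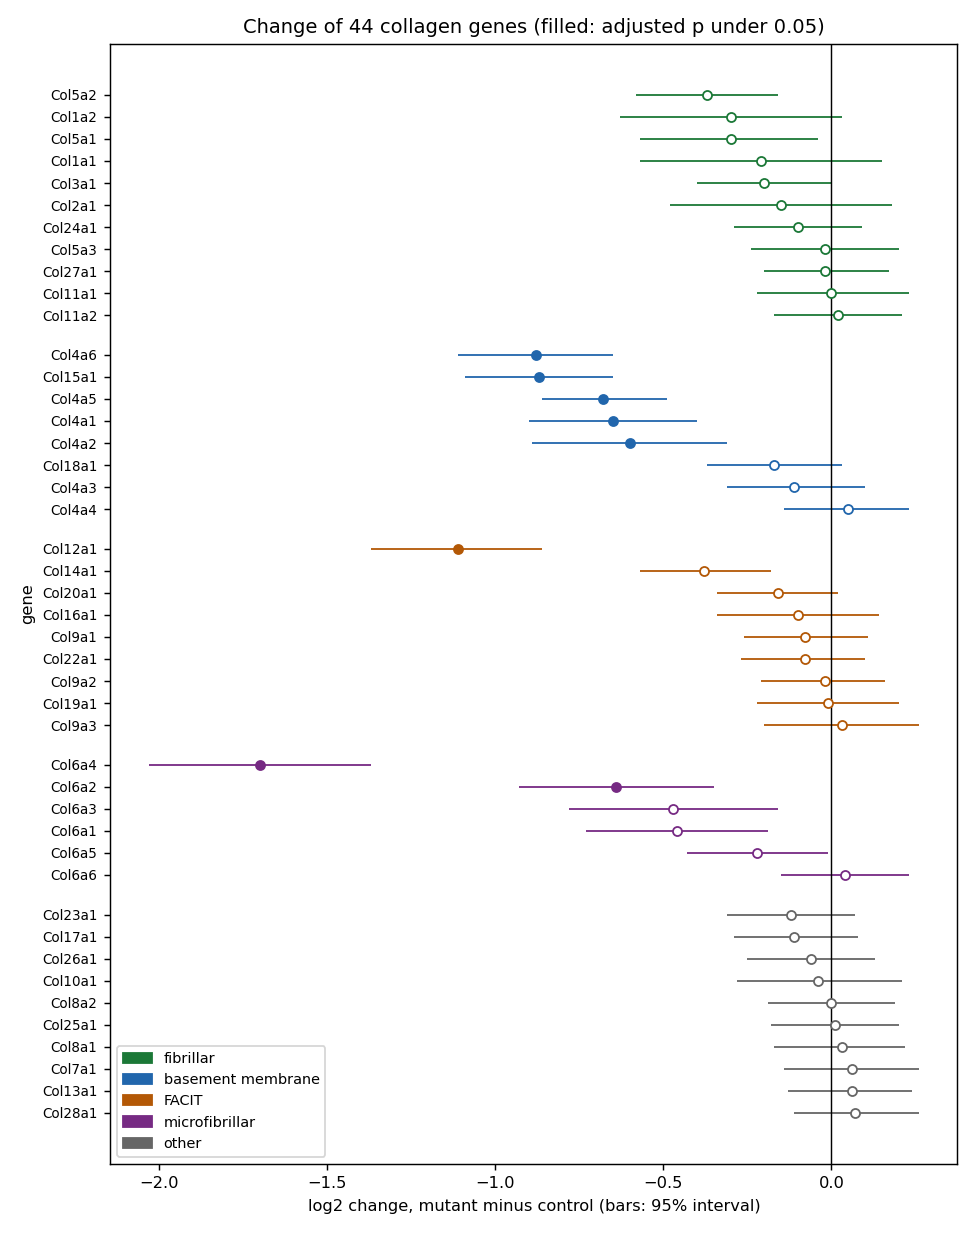
Log2 change (mutant minus control, horizontal axis) of 44 collagen genes, grouped by class, with 95% intervals of the limma fit; filled points have an adjusted p under 0.05. The 8 filled points lie in the basement membrane, FACIT and microfibrillar classes, with Col6a4 farthest to the left at -1.70.

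No fibrillar chain passed the test. Of 11 measured, 0 fell and 0 rose in the limma fit, 2 were lower at an unadjusted p under 0.05 (8.03% of all genes), and the class median was -0.15. Col1a1 and Col1a2 encode the chains of collagen I, the most abundant collagen of the body. From mouse 1 to mouse 3, Col1a1 had control values of 12.98, 13.16 and 13.13 and mutant values of 12.24, 13.19 and 13.20. Col1a2 was 12.80, 12.86 and 12.90 in the controls and 12.03, 12.83 and 12.80 in the mutants. For both genes mutant 1 was low, while mutants 2 and 3 lay close to their littermates. The litter changes of Col1a1 were -0.74, 0.03 and 0.07. The change was -0.21 for Col1a1 (95% interval -0.57 to 0.15) and -0.30 for Col1a2 (-0.63 to 0.03), and without litter 1 these changes were 0.05 and -0.07. Col3a1, whose product forms fibrils together with collagen I, read 12.89, 12.97 and 12.97 in controls against 12.56, 12.78 and 12.89 in mutants. To 2 decimals the highest mutant equalled the lowest control, and the change of -0.20 did not pass (adjusted p = 0.334). Without litter 1 it was -0.13.

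Collagen V sits in the core of collagen I fibrils and sets their width. Col5a2 had control values of 10.36, 10.17 and 10.27 and mutant values of 9.82, 9.84 and 10.02. Col5a1 had control values of 9.80, 9.75 and 9.74 and mutant values of 9.17, 9.58 and 9.64. In both genes every mutant lay below every control (9.78% of all genes), and neither passed the test. The changes were -0.37 ± 0.09 for Col5a2 (adjusted p = 0.0737) and -0.30 ± 0.11 for Col5a1 (adjusted p = 0.254), and without litter 1 they were -0.28 and -0.14. Col5a2 passed under 2 of 11 alternative settings, with an adjusted p of 0.0498 when litter was a random block and of 0.0496 when eBayes used the trend and robust options. The remaining fibrillar chains, Col2a1, Col5a3, Col11a1, Col11a2, Col24a1 and Col27a1, had changes from -0.15 to 0.02. Col2a1, the cartilage collagen, read 8.39, 8.05 and 8.07 in controls and 7.77, 8.14 and 8.15 in mutants, so that litter 1 alone was lower in the mutant. Its change was -0.15, and 0.09 without litter 1. The mean of the cartilage and bone markers ran from 5.66 to 5.72 over the controls and from 5.65 to 5.76 over the mutants, and their part in the Col2a1 values was not tested.

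**Figure D2:**
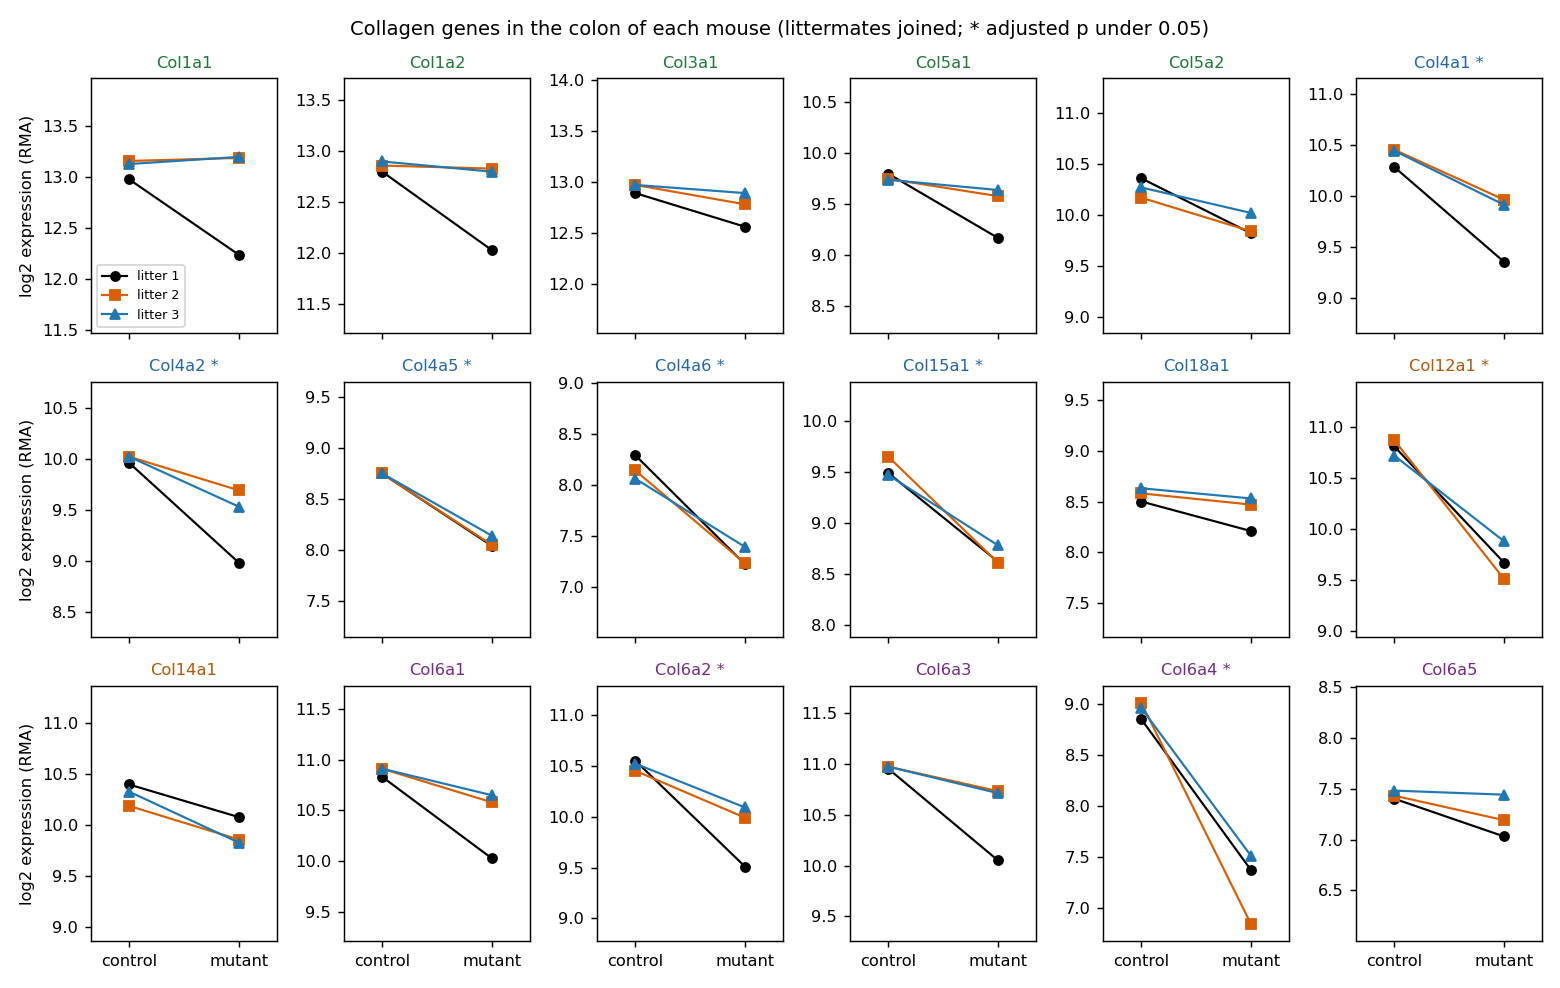
Log2 expression (RMA, vertical axis, same span in each panel) of 18 collagen genes in each control and mutant mouse, with littermates joined; title colours give the class as in the plot of changes, and an asterisk marks an adjusted p under 0.05. All 3 litters fall for Col4a5, Col4a6 and Col15a1, while litter 1 alone falls for Col1a1.

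Basement membrane chains had the lowest class median. Of 8 measured, 5 fell (2.11% of all genes) and 3 did not pass, with a median of -0.62 against 0.01 for all genes. Collagen IV is built in separate networks, and the trimer of Col4a1 and Col4a2 chains is the form found in nearly all basement membranes. Col4a1 read 10.28, 10.45 and 10.44 in controls and 9.35, 9.96 and 9.91 in mutants. Col4a2 read 9.96, 10.02 and 10.02 in controls and 8.98, 9.69 and 9.53 in mutants. The controls lay close together, the mutants were all below them, and mutant 1 was lowest in each case. Col4a1 fell by 0.65 ± 0.11 (adjusted p = 0.0185) and Col4a2 by 0.60 ± 0.13 (adjusted p = 0.0444). The other 6 called collagen genes passed under 11 of 11 alternatives, and these did not. When the litter block was dropped, Col4a1 had an adjusted p of 0.055 and Col4a2 of 0.0853. Col4a2 was also lost without litter 1 (-0.41, adjusted p = 0.0643), with the litter as a random block (0.0659) and after quantile normalization (0.0541). Col4a1 kept its call without litter 1 (-0.51, adjusted p = 0.0296).

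The Col4a5 and Col4a6 chains form another collagen IV network, known from basement membranes around smooth muscle and under some epithelia. Col4a5 was 8.75 in each of the 3 controls and 8.04, 8.05 and 8.14 in the mutants. Col4a6 was 8.29, 8.14 and 8.06 in controls and 7.22, 7.23 and 7.39 in mutants. In both genes the 3 mutants lay close together and well below the controls. Col4a6 fell by 0.88 ± 0.10 (1.84-fold, adjusted p = 0.00434) and Col4a5 by 0.68 ± 0.08 (1.60-fold, adjusted p = 0.00528). The third collagen IV network includes Col4a3 and Col4a4, known from kidney and lung. Col4a3 changed by -0.11 (95% interval -0.31 to 0.10) and Col4a4 by 0.05 (-0.14 to 0.23), and neither passed.

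Genes of the collagen IV pairs lie head to head in the genome, and the called pairs share this layout. By RefSeq order of protein-coding genes, 8 pairs of collagen genes were direct neighbours. In 2 pairs both genes fell (Col4a1 with Col4a2, Col4a5 with Col4a6), in 2 pairs 1 gene fell, and in 4 pairs neither did, Col4a3 with Col4a4 among them. In the RefSeq promoter table the starts of Col4a5 and Col4a6 lie 1343 bases apart on opposite strands, and those of Col4a1 and Col4a2 21 bases apart. The 250 bases before each start of the X-linked pair are shown 5′ to 3′ in the direction of the gene, since these neighbours fell together. They are from RefSeq on build GRCm38.p6, and capitals mark a match to CCAAT on either strand.
Col4a6, chrX:141474077-141474326, reverse strand: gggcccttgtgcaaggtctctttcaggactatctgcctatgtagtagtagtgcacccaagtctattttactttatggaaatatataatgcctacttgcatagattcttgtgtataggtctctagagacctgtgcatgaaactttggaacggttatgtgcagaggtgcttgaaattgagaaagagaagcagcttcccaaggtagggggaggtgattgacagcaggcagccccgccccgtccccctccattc
Col4a5, chrX:141475169-141475418, forward strand: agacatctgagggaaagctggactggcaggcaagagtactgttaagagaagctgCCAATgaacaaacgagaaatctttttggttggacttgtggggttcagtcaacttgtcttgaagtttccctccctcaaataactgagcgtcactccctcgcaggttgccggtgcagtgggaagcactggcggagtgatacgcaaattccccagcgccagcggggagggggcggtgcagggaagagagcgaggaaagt
Col4a5 held a CCAAT match starting 196 bases before its start, and Col4a6 held none of the 5 motifs searched. The Gli site GACCACCCA, searched on both strands, was found in 0 of 38 collagen windows and in 0.225% of 32851 windows of the same length. CCAAT (both strands) was found in 13 collagen windows and in 33.8% of all windows. The median GC content was 59.0% over the collagen windows and 52.4% over all. Of 44 collagen genes 35 had a window, and Col12a1 was the called gene that had none.

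The other 2 genes of this class encode the multiplexins, proteoglycan collagens that sit at the edge of basement membranes. Col15a1, common in the basement membranes of muscle and vessels, read 9.49, 9.65 and 9.47 in controls and 8.62, 8.61 and 8.78 in mutants. Col18a1, the parent of endostatin, read 8.50, 8.58 and 8.63 in controls and 8.21, 8.47 and 8.53 in mutants. Col15a1 was lower in all 3 mutants by about the same step, whereas the ranges of Col18a1 overlapped. Col15a1 fell by 0.87 ± 0.09 (1.83-fold, adjusted p = 0.00376), and Col18a1 changed by -0.17 (95% interval -0.37 to 0.03, adjusted p = 0.421), and by -0.11 without litter 1.

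FACIT chains were represented by 1 called gene of 9, which fell (2.11% of all genes), and the class median was -0.08. Col12a1, whose product decorates collagen I fibrils in dense and mechanically loaded tissue, was 10.81, 10.87 and 10.72 in controls and 9.67, 9.51 and 9.88 in mutants. The groups were far apart compared with the spread within each, from 10.8 ± 0.0756 to 9.69 ± 0.19 (SD, n = 3 each). It fell by 1.11 ± 0.11, or 2.16-fold (adjusted p = 0.00272), and the change was -1.1 without litter 1. Col14a1, the closest relative of Col12a1, was 10.40, 10.19 and 10.33 in controls and 10.08, 9.86 and 9.83 in mutants. Its groups did not overlap, and the change of -0.38 ± 0.08 stood just outside the threshold (adjusted p = 0.0535). It passed under 5 of 11 alternatives, with adjusted p values down to 0.0207 with array weights. The 7 other FACIT genes had changes from -0.16 (Col20a1) to 0.03 (Col9a3). Col20a1 was lower in all 3 litters, by -0.16, -0.18 and -0.15, but its controls (7.76 to 8.02) and mutants (7.61 to 7.85) overlapped and it did not pass (adjusted p = 0.405). The collagen IX genes Col9a1, Col9a2 and Col9a3, best known from cartilage, had changes of -0.08, -0.02 and 0.03.

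The microfibrillar class held the largest change of the family. Of 6 collagen VI genes 2 fell (2.11% of all genes) and 4 did not pass. At an unadjusted p under 0.05, 5 were lower (8.03% of all genes), and the class median was -0.46. Collagen VI is made of an alpha 1 chain, an alpha 2 chain and a variable chain, which is usually alpha 3 and can be alpha 4, 5 or 6. Col6a4, the alpha 4 gene, read 8.85, 9.01 and 8.96 in controls and 7.37, 6.84 and 7.51 in mutants. Each mutant was more than 1 log2 unit below every control, and mutant 2 was the lowest. Col6a4 fell by 1.70 ± 0.14, or 3.25-fold (adjusted p = 0.00142).

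Among the chains of the common collagen VI trimer 1 of 3 genes fell (2.11% of all genes). Col6a1 had control values of 10.83, 10.91 and 10.91 and mutant values of 10.03, 10.58 and 10.65. Col6a2 had control values of 10.55, 10.45 and 10.52 and mutant values of 9.51, 9.99 and 10.09. Col6a3 had control values of 10.95, 10.97 and 10.97 and mutant values of 10.05, 10.73 and 10.71. In all 3 genes every mutant lay below every control (9.78% of all genes), and mutant 1 lay far below mutants 2 and 3. Col6a2 fell by 0.64 ± 0.13 (adjusted p = 0.0333), and its change without litter 1 was -0.45 (adjusted p = 0.0411). Col6a1 (-0.46, adjusted p = 0.0803) and Col6a3 (-0.47, adjusted p = 0.119) did not pass. Without litter 1 their changes were -0.29 and -0.25. Without litter 2 both passed, with adjusted p values of 0.036 for Col6a1 and 0.0257 for Col6a3. That fit has fewer mice, and its standard errors were 0.14 and 0.15, against 0.12 and 0.13 with all litters. A smaller adjusted p there is not stronger evidence.

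The genes of the alternative chains, Col6a4, Col6a5 and Col6a6, are neighbours on chromosome 9. Col6a5 and Col6a6 have 2 rows each on the array, and the rows of Col6a5 differed. The brighter row of Col6a5 read 7.40, 7.43 and 7.48 in controls and 7.03, 7.19 and 7.44 in mutants, with a change of -0.22 that did not pass (adjusted p = 0.31). The dimmer row read 7.04, 6.66 and 6.97 in controls and 6.09, 6.02 and 6.19 in mutants. Its groups were well apart, with a change of -0.79 ± 0.09. In a fit of all 21789 rows with a single symbol, chosen after seeing the data, the dimmer row had an adjusted p of 0.00552. The rows of Col6a6 read 0.04 and 0.00 as changes, and neither passed. The 250 bases before the starts of these 3 genes are given next, because neighbours in this cluster moved to different extents.
Col6a4, chr9:106096692-106096941, reverse strand: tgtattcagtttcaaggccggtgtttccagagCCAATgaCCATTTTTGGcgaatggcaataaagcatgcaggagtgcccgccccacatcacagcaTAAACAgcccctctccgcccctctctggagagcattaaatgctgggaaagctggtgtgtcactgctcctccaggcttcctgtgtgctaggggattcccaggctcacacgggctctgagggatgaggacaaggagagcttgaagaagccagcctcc
Col6a5, chr9:105960644-105960893, reverse strand: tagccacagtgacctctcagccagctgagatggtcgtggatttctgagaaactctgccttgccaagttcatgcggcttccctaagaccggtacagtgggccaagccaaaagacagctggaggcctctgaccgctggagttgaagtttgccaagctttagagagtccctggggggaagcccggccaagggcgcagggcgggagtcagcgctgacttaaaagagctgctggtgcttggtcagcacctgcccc
Col6a6, chr9:105828086-105828335, reverse strand: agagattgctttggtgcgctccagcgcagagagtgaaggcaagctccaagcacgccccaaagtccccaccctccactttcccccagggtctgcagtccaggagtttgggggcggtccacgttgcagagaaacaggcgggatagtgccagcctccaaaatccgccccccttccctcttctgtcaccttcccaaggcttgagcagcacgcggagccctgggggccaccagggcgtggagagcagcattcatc
Capitals mark, in order along the Col6a4 window, CCAAT, a CArG box (the motif bound by serum response factor, whose pattern is its own reverse complement) and the forkhead core TAAACA on either strand. They start 218, 211 and 155 bases before the start of the gene and do not overlap. The CArG box was found in 1 of 38 collagen windows, that of Col6a4, and in 1.47% of all windows. TAAACA was found in 6 collagen windows and in 12% of all windows. The windows of Col6a5 and Col6a6 held none of the 5 motifs, of which the last was TATAAA, searched in the forward direction and found in 5 collagen windows and 7.59% of all. A match describes the letters alone.

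The remaining 10 collagens did not change beyond the test. They include the anchoring fibril gene Col7a1, the short-chain network genes Col8a1, Col8a2 and Col10a1, and the membrane-spanning collagens Col13a1, Col17a1, Col23a1 and Col25a1, with Col26a1 and Col28a1. In the limma fit 0 fell and 0 rose, also 0 and 0 at an unadjusted p under 0.05. Their changes ran from -0.12 (Col23a1) to 0.07 (Col28a1). The 95% interval was -0.17 to 0.22 for Col8a1, a gene of vessel walls, and -0.14 to 0.26 for Col7a1.

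**Figure D3:**
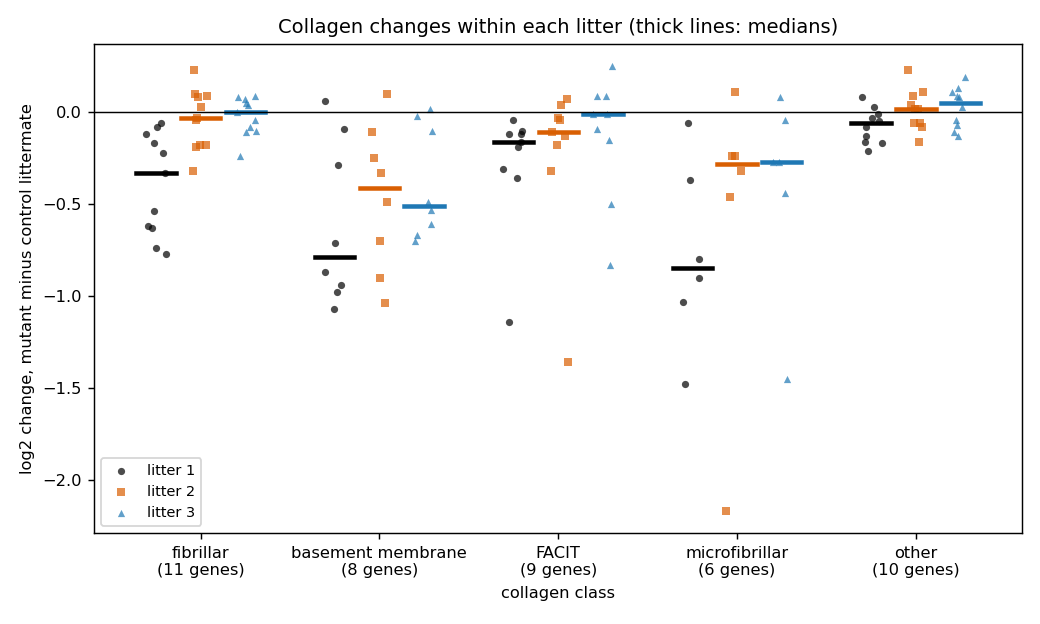
Log2 change of each collagen gene (points, vertical axis) in each of 3 litters, by class, with thick lines at the class medians. Litter 1 has the lowest median in each class. In litters 2 and 3 the fibrillar medians are -0.03 and -0.00 while the basement membrane medians are -0.41 and -0.51. Of 11 fibrillar chains 5 were lower in the mutant of all 3 litters (17.1% of all genes).

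The classes differed in how far the litters spread. Over all genes the median change was 0.01, 0.00 and 0.01 in litters 1, 2 and 3. The median absolute change was 0.15, 0.11 and 0.12 over all genes and 0.20, 0.12 and 0.10 over collagen genes. Basement membrane chains had medians of -0.79, -0.41 and -0.51, microfibrillar chains of -0.85, -0.28 and -0.27, and fibrillar chains of -0.33, -0.03 and -0.00. FACIT chains stood at -0.16, -0.11 and -0.01 and the remaining collagens at -0.06, 0.02 and 0.05. Of 44 genes 41 were lower in the mutant of litter 1, 29 in litter 2 and 28 in litter 3. Without litter 1 the median was -0.07 over collagen genes, -0.00 over fibrillar, -0.27 over microfibrillar and -0.46 over basement membrane chains. Without litter 3 the family median was -0.17 and the fibrillar one -0.26. Without litter 1, 7 of 44 collagen genes and 484 of all 19938 genes fell.

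Chains that assemble or sit together were compared by the difference between their changes in each litter. With 3 litters the exact paired sign-flip test cannot give a two-sided p under 0.25, so none of the 15 planned differences could pass, and the smallest adjusted p was 0.536. The change of Col15a1 minus that of Col18a1 was -0.58, -0.93 and -0.60 in the 3 litters, a mean difference of -0.70 ± 0.2 (SD, n = 3 litters, exact p = 0.25). Col12a1 differed from Col14a1 by -0.73 ± 0.364 and Col4a6 from Col4a2 by -0.28 ± 0.255, with the same sign in 3 of 3 litters. Such a shared sign was seen in 7 of the 15 planned pairs, also for Col9a1 against Col9a2 with a mean difference of -0.05. Chains that share a trimer had mean differences of 0.09 ± 0.0749 between Col1a1 and Col1a2, -0.05 ± 0.103 between Col4a1 and Col4a2 and 0.01 ± 0.0895 between Col6a1 and Col6a3. Between Col6a1 and Col6a2 the mean difference was 0.18 ± 0.0495, with 0.23, 0.14 and 0.17 in the litters, and between Col4a5 and Col4a6 it was 0.20 ± 0.152. Both had the same sign in 3 of 3 litters. Col6a4 against Col6a3, picked after their values were seen, gave -0.58, -1.93 and -1.18.

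Partners of collagen were followed through 4 lists. Of 16 basement membrane partners 8 fell, 0 rose and 8 did not pass, where 2.11% of all genes fell and 1.66% rose. Their median was -0.45, and 15 of 16 were lower in all 3 litters (17.1% of all genes). Pxdn, peroxidasin, which joins collagen IV networks through covalent bonds, read 10.28, 10.29 and 10.30 in controls and 9.41, 9.60 and 9.61 in mutants (-0.75 ± 0.08, adjusted p = 0.00457). The mutants were all lower, and the laminin chains Lamb1 (-0.76) and Lamc1 (-0.64) stood beside it. Without litter 3, 5 of these 16 genes fell. Of 20 genes for chain modification and folding 2 fell and 0 rose, with a median of -0.07. P3h2, a prolyl hydroxylase that acts on collagen IV, read 8.86, 9.06 and 9.14 in controls and 8.0, 8.05 and 8.0 in mutants (-1.0 ± 0.09, adjusted p = 0.00162). The other, the collagen galactosyltransferase gene Colgalt2, fell by 0.43 ± 0.08 (adjusted p = 0.0297, and 0.0589, 0.0916 and 0.0744 without litters 1, 2 and 3). With control values of 5.88, 5.86 and 5.85, Colgalt2 was among the dimmest 30% of genes.

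Of 9 collagen receptors and uptake genes 2 fell and 0 rose (2.11% and 1.66% of all genes), with a median of -0.15. Itga1, a chain of an integrin that binds collagen IV, fell by 0.57 ± 0.08 (adjusted p = 0.0123). Ddr2, a receptor kinase for fibrillar collagen, fell by 0.59 ± 0.10 (adjusted p = 0.0199). Of 11 genes for propeptide processing and cross-linking 0 fell and 0 rose in the limma fit. At an unadjusted p under 0.05, 2 were lower (8.03% of all genes), and 1 fell under 5 of 11 alternatives. Their median was -0.08.

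Markers of the cells of the colon wall were measured beside the collagens. Of 10 smooth muscle markers 6 fell (2.11% of all genes) and 10 were lower in all 3 litters (17.1% of all genes). Their mean level ran from 11.44 to 11.51 over the controls and from 10.73 to 11.17 over the mutants, with median changes of -0.75, -0.54 and -0.30 in litters 1, 2 and 3. Of 10 blood endothelium markers 6 fell and 10 were lower in all 3 litters, with mean levels of 8.36 to 8.60 in controls and 7.96 to 8.11 in mutants. The median changes of these markers were -0.39, -0.42 and -0.44 in litters 1, 2 and 3. Of 10 fibroblast markers 3 fell, Mfap5 (-1.09), Pdgfra (-0.42) and Cd34 (-0.42), and 5 were lower in all 3 litters. The 7 that did not pass ran from -0.24 (Dpt) to 0.14 (Pi16). Fibroblast markers had mean levels of 10.08 to 10.22 against 9.89 to 10.02. Of 6 pericyte markers 1 fell and 5 did not pass, with 9.13 to 9.17 against 8.86 to 9.01. The part of these cells in the collagen values was not tested, and in dissected tissue fewer cells of a type and less RNA per cell cannot be told apart. Gut epithelium markers had mean levels of 11.16 to 11.26 against 11.04 to 11.23, and 0 of 10 passed in the limma fit, with 1 lower at an unadjusted p under 0.05. The mesothelium, nerve and glia, skeletal muscle, cartilage and squamous lists had 0 called genes of 6, 6, 9, 7 and 6 in that fit. At an unadjusted p under 0.05 (8.03% of all genes lower and 7.05% higher), 2 mesothelium markers were higher, 2 skeletal muscle markers and 1 cartilage marker were lower, and the nerve and glia and squamous lists had 0. Of 6 leukocyte markers 1 rose (1.66% of all genes), the myeloid integrin gene Itgam (0.52), and 5 did not pass. Those 5 ran from -0.43 (Adgre1) to -0.05 (Cd79a), with 1 lower at an unadjusted p under 0.05. The median of the leukocyte list was -0.08.

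**Figure D4:**
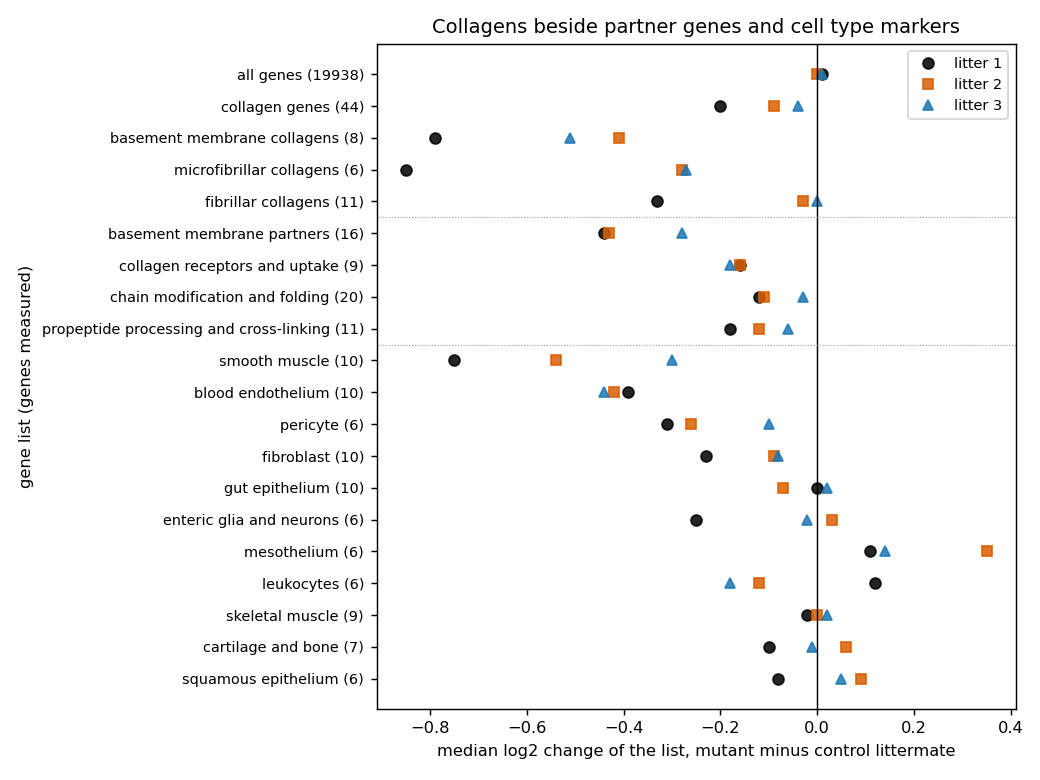
Median log2 change (mutant minus control littermate, horizontal axis) of each gene list in each of 3 litters, for all genes, collagen classes, collagen partners and cell type markers, with the number of genes measured in brackets. The medians of smooth muscle, blood endothelium, pericyte and fibroblast markers lie left of 0 in all 3 litters. Those of the collagen classes shown and of the partner lists do too, with fibrillar collagens at -0.00 in litter 3.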

How the data were processed

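Colon of 3 control and 3 mutant mice was measured on 6 arrays. The authors deposited log2 expression values made with RMA (background correction, quantile normalization, summary of a transcript's probes), per the submitters' processing notes; its version and the probe design's genome build were not given in the sources used here. Arrays carry no counts, so precision is limited by 3 mice per group. Of 35557 rows, 21789 had 1 gene symbol in the platform annotation, 1621 several and 12147 none; the brightest row per gene left 19938 genes, and 44 of 44 collagen genes matched RefSeq identifiers. limma 3.58.1 in R 4.3.3 (lmFit, eBayes without trend, two-sided, Benjamini-Hochberg over 19938 genes, adjusted p under 0.05) compared mutant with control, with the litter as a fixed block from the design text; prior and residual degrees of freedom were 5.85 and 2. Over genes, the deviations of littermates from group means had correlations of 0.0128, 0.00516 and 0.0613, so the pairing rests on the labels. The script was tested on simulated data.

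The members and lists were chosen with earlier results of these data known. Values per mouse were given for each member that passed and for 12 preset genes; Col2a1 and Col6a5 were added after their values were seen. In each partner list up to 3 called genes were named. Motifs were searched in the 250 bases before RefSeq starts. The 11 alternatives changed the block (none or random), eBayes (trend and robust), the weights (by array), the genes (without the dimmest 30%), the scaling (quantile or median), the rows (averaged per gene) or the litters (each left out).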

Additional observations from a re-analysis of the deposited data

How the results depend on the processing

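The number of collagen genes that fell was 6 without the replicate block and lay between 7 and 10 under the other 10 alternatives, and 0 rose under any of the 11. Col4a5, Col4a6, Col6a2, Col6a4, Col12a1 and Col15a1 passed under all 11. Without the replicate block Col4a1 and Col4a2 lost their calls, and no other collagen call was lost. Col5a2, Col6a1, Col6a3, Col6a5 and Col14a1 passed only under some alternatives. With array weights 734 of all genes fell and 512 rose, against 421 and 330. Of genes for chain modification and folding 1 fell when any litter was left out. Without the dimmest 30% of genes 1 fell also, since Colgalt2 was among the genes dropped and was not tested. Of genes for propeptide processing and cross-linking 1 fell with a random litter block, with array weights, without the dimmest 30%, with the mean of all rows, and in 0 to 1 cases when a litter was left out. Of basement membrane partners 5 to 7 fell when a litter was left out.

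Sign changes were seen in collagen genes with small changes that never passed. With array weights Col5a3 was 0.03 and Col19a1 0.04, and with median centring Col11a1 was -0.01, Col8a2 -0.01 and Col25a1 -0.00. When a litter was left out the change ran from -0.35 to 0.05 for Col1a1, -0.27 to 0.09 for Col2a1, -0.07 to 0.08 for Col5a3, -0.11 to 0.09 for Col11a1, -0.01 to 0.07 for Col11a2, -0.05 to 0.02 for Col9a2, -0.08 to 0.11 for Col9a3, -0.19 to 0.03 for Col16a1, -0.06 to 0.08 for Col19a1, -0.01 to 0.11 for Col7a1, -0.02 to 0.08 for Col8a1, -0.03 to 0.04 for Col8a2, -0.17 to 0.05 for Col10a1 and -0.03 to 0.05 for Col25a1. The cause was not tested. The array gives no background level here, so the size of a change in dim genes is uncertain.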
